A study of Mus musculus with 11 samples.

Results

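The 7 genes described here carry the MHC class II presentation pathway: the peptide-binding chains H2-Aa, H2-Ab1 and H2-Eb1, the invariant chain Cd74, both chains of the peptide editor H2-DM (H2-DMa and H2-DMb1), and Ciita, the class II transactivator. They were chosen by name for their function, with earlier results of these data known, and all 7 were among the 12787 genes measured. RNA sequencing was performed on gonadal white adipose tissue (WAT) of male mice of the C57Bl6/J strain, with no engineered allele named in the labels. Control mice were kept for several months on a 60% high fat diet (HFD) alone, labelled as vehicle (n = 5). The other mice received the 60% HFD with 0.06% w/w iodomethylcholine (IMC), which inhibits the gut microbial enzyme that makes trimethylamine from choline (n = 6). Each mouse gave 1 library, no lean or chow-fed group was measured beside them, and the labels give neither age nor cage. The comparison asked whether IMC changed the expression of class II presentation genes in the fat of mice on an HFD.

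MHC class II molecules are pairs of an alpha and a beta chain that display peptides from engulfed material to CD4+ T cells. The pairs are assembled in the endoplasmic reticulum with the invariant chain, travel to endosomes where proteases degrade that chain, and exchange its last fragment for another peptide with the help of H2-DM. Dendritic cells, B cells and macrophages are the usual carriers, interferon gamma can induce the pathway in many other cells, and in obese fat the macrophage is the most common class II positive cell. Mice of the C57BL/6 background have no functional H2-Ea chain, so that the H2-Eb1 product has no partner at the cell surface although its transcript is made.

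Positions are those of the mouse GENCODE annotation (GRCm38, the mm10 build of the study). Within the MHC on chromosome 17, H2-DMa spans 34119541 to 34139101 and H2-DMb1 spans 34153072 to 34160230. Further along the same chromosome, H2-Ab1 spans 34257689 to 34269419, H2-Aa spans 34282744 to 34287823 on the reverse strand, and H2-Eb1 spans 34305867 to 34316674. Ciita lies outside the MHC at 10480059 to 10528418 of chromosome 16. In the annotation Brd2 overlaps H2-DMa on the opposite strand, as Dexi does Ciita and the antisense transcript Gm20513 does H2-Eb1. The libraries were directional but the strand setting of the count was not stated, so reads of these genes may have been mixed. On the same strand CR974462.3 overlaps H2-DMa and the microRNA gene Mir5107 overlaps Cd74, which no strand setting separates.

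Class II genes are known for a shared promoter module of an X box and a Y box, on which RFX, CREB family members and NF-Y assemble before CIITA, which does not itself bind DNA, is recruited. Promoter windows from RefSeq (GRCm38.p6) were found for 4 of the 7 genes, and the 150 bases before the RefSeq start of 3 of them are shown because their Y box, and where present the X1 box, can be read in them. Capitals mark the searched letters, GATTGG or its reverse CCAATC for the Y core, AACNGATG for the X1 core and TGACGTCA for the cyclic AMP response element. The windows are H2-Aa at chr17:34287824-34287973 on the reverse strand, H2-Eb1 at chr17:34305717-34305866 and H2-DMb1 at chr17:34153041-34153190, both on the forward strand, each written 5′ to 3′ on the gene's own strand. The RefSeq start of H2-DMb1 is 34153191, downstream of the GENCODE start given above, so that most of its stretch lies inside the GENCODE span.
H2-Aa: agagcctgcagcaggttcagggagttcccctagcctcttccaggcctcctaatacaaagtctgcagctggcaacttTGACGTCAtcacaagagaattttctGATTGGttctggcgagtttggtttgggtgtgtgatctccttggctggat
H2-Eb1: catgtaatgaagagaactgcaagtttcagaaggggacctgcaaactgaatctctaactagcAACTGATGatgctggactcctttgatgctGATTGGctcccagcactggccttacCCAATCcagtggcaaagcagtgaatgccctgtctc
H2-DMb1: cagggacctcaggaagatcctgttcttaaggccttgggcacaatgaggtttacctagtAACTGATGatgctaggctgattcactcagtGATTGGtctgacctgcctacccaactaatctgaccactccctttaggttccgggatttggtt

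The Y core began at -49 in H2-Aa, -60 in H2-Eb1 and -62 in H2-DMb1, counted from the RefSeq start, and H2-Eb1 held a second copy in reverse at -35. The X1 core began at -89 in H2-Eb1 and -92 in H2-DMb1. Both of these genes thus carry X1 and Y cores at nearly the same spacing. No X1 core was found in the H2-Aa window, which held TGACGTCA at -74, a motif searched for after the sequence had been seen. The X2 core TGNGTCA was found in none of these 3 windows. Windows of H2-DMa were given for 2 annotated starts upstream of its coding part, 1 without a match and 1 with an X2 core at -86 and a Y core at -199. Searched on both strands over all 32817 promoter windows of 300 bases, the X1 core was found in 2.32%, the X2 core in 15.4%, the Y core in 16.08%, TGACGTCA in 1.79%, and X1 and Y cores together in 0.332%. These matches describe the letters of the windows and not binding.

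Values are given as log2 CPM, the log2 of the CPM with library size scaled by the upper quartile, where CPM is a gene's reads relative to the reads of its library, so that 1 unit is a 2-fold difference. Per library, 22320000 to 25155400 reads lay on the measured genes, rounded to 6 digits. From the whole reads recovered behind the values, Cd74 had between 43602 and 87962 reads per mouse and Ciita, the lowest of the 7, between 785 and 2043. Counting error alone corresponded to an SD of at most 0.042 log2 CPM, for Ciita, below the SD between mice of either group for each of the 7 genes. The tissue label was checked on adipocyte genes, of which 10 of 10 were listed, with Lep, encoding leptin, averaging 10.97 log2 CPM over the 5 control mice with an SD of 0.23. Adjusted p-values are from limma over all measured genes with Benjamini-Hochberg adjustment, and a gene was called at an adjusted p under 0.05.

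IMC treatment was not accompanied by a called difference in any of the 7 class II genes. Limma called 0 of 7 higher and 0 of 7 lower, beside 20.0% of all measured genes called higher and 21.0% called lower, or 40.9% in either direction. The smallest unadjusted p of the 7 was 0.138, for H2-DMa (limma), so none was under 0.05. Limma voom on the recovered reads called 0 of 7 as well, beside 2537 of all 12787 genes higher and 2676 lower. Values of the groups overlapped for each of the 7 genes, whereas 23.1% of all genes had no overlap. The median log2 fold change of the 7 genes was -0.16, against -0.03 over all genes, with a range from -0.23 for H2-DMa to 0.08 for H2-DMb1.

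The 3 peptide-binding chains were abundant transcripts and varied mainly through a single control mouse. H2-Aa, the alpha chain of I-A, measured 10.23, 10.32, 10.65, 11.39 and 10.50 log2 CPM in HFD replicates 1 to 5, and in IMC-treated mice its lowest value was 10.28, its median 10.41 and its highest 10.65. HFD replicate 4 stood above every other mouse, while the other 4 controls spanned nearly the same range as the treated mice. The means were 10.62 ± 0.46 (SD, n = 5) and 10.42 ± 0.13 (SD, n = 6), a log2 fold change of -0.20 with a standard error of 0.17 and a 95% interval from -0.56 to 0.16 (limma, Benjamini-Hochberg adjusted p = 0.367). Without HFD replicate 4 the control mean was 10.43 and the fold change -0.01.

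H2-Ab1, the beta chain that pairs with H2-Aa, measured 9.31, 9.36, 9.62, 10.49 and 9.60 log2 CPM in the controls, and between 9.26 and 9.64 with a median of 9.43 in IMC-treated mice. HFD replicate 4 was again alone at the top. Group means of 9.67 ± 0.48 (SD, n = 5) and 9.46 ± 0.14 (SD, n = 6) gave a log2 fold change of -0.21 ± 0.17 (SE), with a 95% interval from -0.59 to 0.16 (limma, Benjamini-Hochberg adjusted p = 0.343). Leaving out HFD replicate 4 brought the fold change to -0.01.

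For H2-Eb1, the beta chain of I-E, the controls had 9.49, 9.54, 9.86, 10.74 and 9.87 log2 CPM. Treated mice lay between 9.55 and 9.93, with a median of 9.74, close to the range of the 4 lower controls. The log2 fold change was -0.16 ± 0.18 (SE), with a 95% interval from -0.55 to 0.23 (limma, Benjamini-Hochberg adjusted p = 0.497). It turned to 0.05 without HFD replicate 4 (limma, Benjamini-Hochberg adjusted p = 0.740), so the sign of this difference rested on that mouse.

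Cd74 encodes the invariant chain, the chaperone that fills the binding groove until the pair reaches the endosome. It lies on chromosome 18 at 60803848 to 60812652 (GRCm38) and was the most abundant of the 7 genes. Its values in HFD replicates 1 to 5 were 10.94, 11.01, 11.20, 11.85 and 11.22 log2 CPM, and in IMC-treated mice they ran from 10.92 through a median of 11.09 to 11.28. Except for HFD replicate 4, both groups occupied nearly the same range. With means of 11.24 ± 0.36 (SD, n = 5) and 11.09 ± 0.13 (SD, n = 6), the log2 fold change was -0.16 ± 0.14 (SE), with a 95% interval from -0.46 to 0.15 (limma, Benjamini-Hochberg adjusted p = 0.407). On the linear scale the interval ran from 0.725 to 1.11 of the control level. Without HFD replicate 4 the control mean was 11.09, equal at this precision to that of the treated mice.

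H2-DMa and H2-DMb1 encode the chains of the DM heterodimer. The alpha chain gene H2-DMa measured 6.09, 6.16, 6.28, 7.10 and 6.29 log2 CPM in the controls, and 6.01 to 6.32 with a median of 6.13 in IMC-treated mice. HFD replicate 4 was far above all other mice, which overlapped. The log2 difference between the group means was -0.23 ± 0.15 (SE) with a 95% interval from -0.55 to 0.08 (limma, Benjamini-Hochberg adjusted p = 0.228). The fold change shrank to -0.05 without HFD replicate 4.

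H2-DMb1, the beta chain gene, was the only one of the 7 with a fold change above 0 over all mice. The controls had 6.63, 6.77, 6.81, 7.31 and 6.83 log2 CPM, and the treated mice lay between 6.85 and 7.11 with a median of 6.93. All 6 treated mice were above 4 of the 5 controls and below HFD replicate 4. Over all mice the log2 fold change was 0.08 ± 0.10 (SE), with a 95% interval from -0.13 to 0.30 (limma, Benjamini-Hochberg adjusted p = 0.519). Without HFD replicate 4 it was 0.19 ± 0.06 (SE) and passed the threshold (limma, Benjamini-Hochberg adjusted p = 0.0246). That fit called 2302 of all 12787 genes higher, and the mouse left out was singled out for its high values of these same genes. H2-DMb1 shares 22.65% of its 50-base words with its neighbour H2-DMb2, so part of its reads may have been lost or misassigned in the count, which makes its level uncertain.

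Ciita encodes the transactivator that sets class II transcription, and was the lowest of the 7, and the most variable among IMC-treated mice. The controls measured 5.24, 5.75, 5.68, 6.42 and 5.21 log2 CPM, and IMC-treated mice ranged from 5.01 to 6.04 with a median of 5.56. Both groups were wide and overlapped over most of their range. The log2 fold change was -0.11 ± 0.22 (SE), with a 95% interval from -0.58 to 0.35 (limma, Benjamini-Hochberg adjusted p = 0.71). Without HFD replicate 4 it was 0.08 (limma, Benjamini-Hochberg adjusted p = 0.765).

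**Figure D1:**
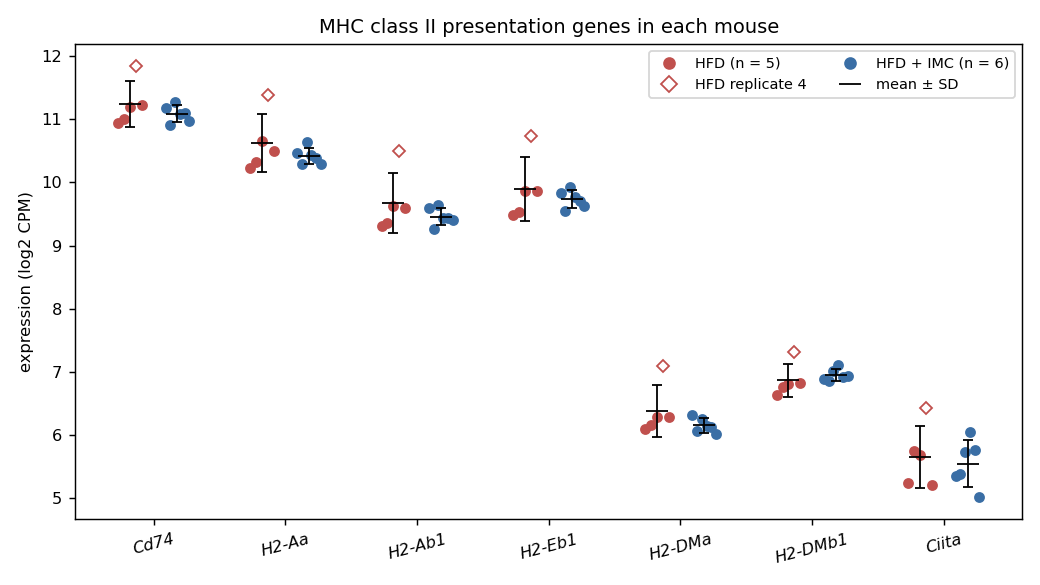
Expression of the 7 MHC class II presentation genes (x axis) in log2 CPM (y axis), with 1 point per mouse, HFD control mice in red (n = 5), IMC-treated mice in blue (n = 6), and black bars for mean ± SD. The open diamond is HFD replicate 4, which is the highest of the 11 mice for each gene, from 7.31 for H2-DMb1 and 6.42 for Ciita up to 11.85 for Cd74.

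Levels of different genes can be compared only per length of transcript. Divided by the length of the main transcript, the level in HFD control mice was 10.82 log2 CPM per kb for Cd74, 10.44 for H2-Aa, 9.67 for H2-Eb1 and 9.40 for H2-Ab1. On the same per-length scale H2-DMb1 reached 6.38, H2-DMa 6.24 and Ciita 3.58. The invariant chain and the peptide-binding chains were thus far above the DM chains, and Ciita lowest. When the length of all exons was used instead, H2-Eb1 (8.94) came before H2-Aa (8.69), and the DM chains differed more, at 6.12 for H2-DMb1 and 4.6 for H2-DMa. The order of the neighbours H2-Aa and H2-Eb1 thus depended on the length used.

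HFD replicate 4 was the highest of the 5 controls for 7 of 7 class II genes, which was the case for 19.6% of all measured genes. Compared with the mean of the other 4 controls it had 2.07-fold the level of H2-Eb1, 2.03-fold that of H2-Ab1, 1.95-fold that of H2-Aa and 1.94-fold that of Ciita. The excess was smaller for H2-DMa (1.86-fold), Cd74 (1.69-fold) and H2-DMb1 (1.47-fold). Across the 7 genes the SD among controls ran from 0.26 to 0.50 log2 CPM with this mouse and from 0.09 to 0.28 without it, and that among IMC-treated mice from 0.09 to 0.37. The mouse was kept in the main comparison, and values without it are given beside results that it decides.

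The high class II level of HFD replicate 4 was accompanied by high values of costimulatory, interferon-responsive and lymphocyte genes. The costimulatory receptor Cd40 was at 3.92 log2 CPM in this mouse and at 2.65 to 3.16 in the other controls, and Cd86 at 4.57 against 3.50 to 3.84. The interferon-induced genes Irf1 and Gbp2 were at 6.89 and 7.57, and Tap1 and Psmb9, which serve class I presentation, at 6.69 and 5.79, each the highest of the controls. For B cells, Cd22 was at 5.96 in this mouse and at 4.67 to 5.36 in the other controls, and it was the only one of 13 B cell markers measured. The defining markers Ms4a1 and Cd79a were not listed. Of 13 T cell markers 3 were listed (Lag3, Cd2 and Cd28), with a mean of 3.13 in HFD replicate 4 and 2.16 to 2.52 in the other controls, while Cd3e and Cd4 were not listed. Of 8 markers of lymph node and follicles 2 were listed, and they differed: Fcrl1 was at 3.22 in this mouse against 1.62 to 2.61 in the other controls, while Ccl19 was at 1.19, within the 0.79 to 1.75 of the others. Macrophage genes did not separate the mouse in this way, with a mean of 8.98 against 8.70 to 8.96. The part of lymphocytes or lymph node tissue in the class II values of this mouse was not tested.

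**Figure D2:**
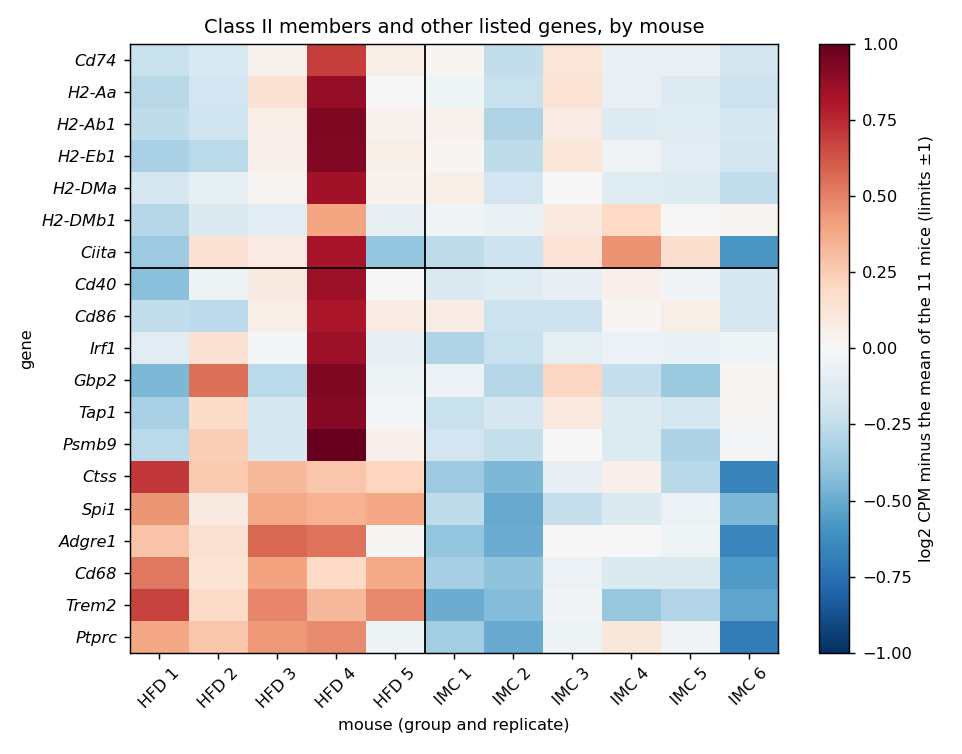
Heatmap of log2 CPM minus the mean of the 11 mice for the 7 class II genes (above the line) and 12 other genes (below), with 1 column per mouse and the color scale ending at 1 in either direction. HFD replicate 4 is high for the class II genes and for Cd40, Cd86, Irf1, Gbp2, Tap1 and Psmb9, whereas Ctss, Spi1, Adgre1, Cd68 and Trem2 separate the groups without overlap, and Ptprc is lower in treated mice with overlap.

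Within groups the class II genes varied together over the 11 mice. After centring each gene within its group, Pearson r over the 21 pairs of the 7 genes ranged from 0.646 to 0.993 with a median of 0.925. The 10 pairs among Cd74, H2-Aa, H2-Ab1, H2-Eb1 and H2-DMa had values from 0.966 to 0.993, and from 0.826 to 0.975 without HFD replicate 4. Pairs with Ciita were looser, from 0.646 to 0.792, and dropped to 0.136 to 0.585 when that mouse was left out. The points of a pair share the library, and these values are descriptions over 11 mice.

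Outside the pathway, the 10 genes whose pattern was most like the mean of the 7 within groups were Epsti1, Pld4, Cd40, Phf11b, Fgd2, H2-M3, Limd2, Cd86, Gata3 and Dusp22. Their Pearson r over the 11 mice ran from 0.962 for Epsti1, an interferon-induced gene, to 0.899 for Dusp22, a phosphatase. Pld4, an endolysosomal exonuclease, had the likeness least tied to a single mouse, with 0.949 over 11 mice and 0.919 without HFD replicate 4. Cd86 lost most, from 0.906 to 0.550, and Cd40 went from 0.946 to 0.716. Over all mice without centring, the 5 most alike were Pld4 (0.951), Cd40 (0.949), Phf11b (0.936), Cd86 (0.913) and Gata3 (0.908). Of these genes Epsti1, Limd2 and H2-M3, a nonclassical class I molecule, were lower in IMC-treated mice by 0.50, 0.51 and 0.36 on the log2 scale at an adjusted p under 0.05 (limma).

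The proteases and other helpers that prepare peptide and invariant chain for loading differed between the groups where the class II genes did not pass the test. Of 13 genes listed for class II processing, 11 were lower and 0 higher in IMC-treated mice, beside 21.0% of all genes lower, with a median log2 fold change of -0.45. Leaving out HFD replicate 4, the count was 10 lower, beside 2261 of all 12787 genes. Cathepsin S (Ctss), the protease that trims the invariant chain to its last fragment, fell by 0.65 on the log2 scale, from 10.90 ± 0.20 (SD, n = 5) to 10.24 ± 0.26 (SD, n = 6) with no overlap between the groups (limma, Benjamini-Hochberg adjusted p = 0.00147). Ifi30, the thiol reductase of the endosome, fell by 0.58 (limma, Benjamini-Hochberg adjusted p = 0.000117). The asparagine endopeptidase Lgmn fell by 0.45, and the lysosomal cathepsins Ctsz, Ctsd, Ctsb and Ctsl by 0.50, 0.49, 0.38 and 0.28, all 5 without overlap. Sppl2a, which cleaves the remnant of the invariant chain in the membrane, fell by 0.22. The tetraspanins Cd9 and Cd63 fell by 0.70 and 0.62, while Cd82 had a fold change of -0.13 and was not called. March1, a ubiquitin ligase that removes class II from the surface, fell by 0.31 and was the gene no longer called without HFD replicate 4 (limma, Benjamini-Hochberg adjusted p = 0.0684). Its relative March8 had a fold change of 0.03 and was not called. Most of these proteins serve lysosomes in general and are not restricted to class II presentation.

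The remaining genes of the class II family, H2-Ea, H2-Eb2, H2-DMb2, H2-Oa, H2-Ob and the pseudogene H2-Ea-ps, were looked up and 0 of 6 were listed. Of 18 regulators of class II transcription, 1 was higher and 4 were lower, with a median log2 fold change of -0.05, beside 20.0% and 21.0% of all genes, so that the share called lower was near that of all genes. The RFX subunits Rfx5, Rfxap and Rfxank, which bind the X1 box, had fold changes of -0.04, -0.04 and 0.15 and were not called. Of the NF-Y subunits that bind the Y box, Nfya fell by 0.36 (limma, Benjamini-Hochberg adjusted p = 0.00252), while Nfyb (0.10) and Nfyc (0.07) were not called. Creb1, of the family that binds the X2 box, fell by 0.23, and the coactivator Kat2b rose by 0.22. The myeloid transcription factors Spi1 and Irf8, active in macrophages and dendritic cells at large, fell by 0.60 and 0.41. Crebbp, Ep300, Atf1, Irf1, Irf4, Zxdc and Prdm1 were not called, with fold changes from -0.41 for Prdm1 to 0.15 for Crebbp. HFD replicate 4 was the highest control for 11 of the 18 regulators.

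Of the interferon gamma axis, 8 of 11 genes were listed, with 0 higher and 2 lower in IMC-treated mice, near the 21.0% of all genes called lower. Socs1, the feedback inhibitor of the pathway, fell by 0.85 (limma, Benjamini-Hochberg adjusted p = 0.00254) from a low level of 1.07 log2 CPM, and the receptor chain Ifngr2 fell by 0.24. Ifngr1, Jak1, Jak2, Irf1 and Gbp2 were not called. Ifng, Cxcl9 and Cxcl10 were not listed. Among 6 listed costimulatory genes, Cd80 and Cd83 fell by 0.68 and 0.67 and Cd274, which encodes the inhibitory ligand PD-L1, rose by 0.46 (limma, Benjamini-Hochberg adjusted p = 0.0152). Cd86, Cd40 and Icosl had fold changes of -0.16, -0.18 and 0.03 and were not called. Class I presentation, the parallel pathway for cytosolic peptides, had 0 of 14 genes higher and 3 lower (Pdia3, Psmb10 and Calr), near the 21.0% of all genes called lower, with a median of -0.14. The count without HFD replicate 4 was 2 higher (H2-K1 and B2m, chosen after their values were seen) and 2 lower (Pdia3 and Calr), with a median of -0.05. Of all 12787 genes, 2302 were then called higher and 2261 lower. HFD replicate 4 was the highest control for 6 of the 8 interferon gamma genes, 5 of the 6 costimulatory genes and 11 of the 14 class I genes.

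**Figure D3:**
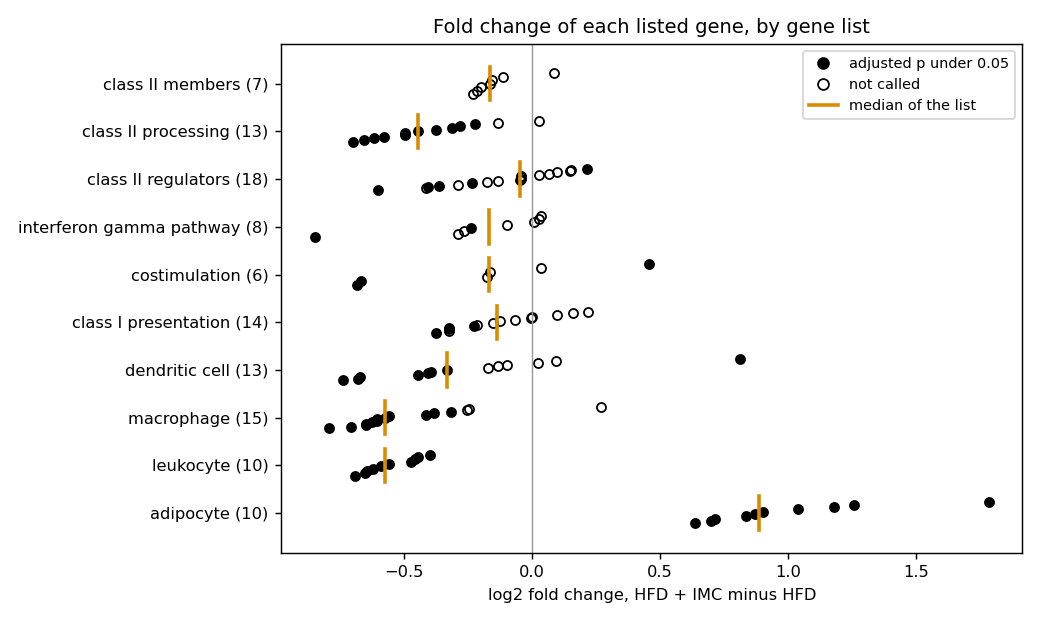
Log2 fold change of IMC-treated minus HFD control mice (x axis) for each listed gene of 10 gene lists (y axis, number of listed genes in parentheses), with filled points for genes called at an adjusted p under 0.05 (limma), open points for the others and an orange line at each list's median. The 7 class II genes lie between -0.23 and 0.08 and none is filled, while 11 of 13 processing, 12 of 15 macrophage and 10 of 10 leukocyte genes are filled to the left of 0 and 10 of 10 adipocyte genes to the right. Of all measured genes, 21.0% were called lower and 20.0% higher.

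Genes of the cells that carry class II were mostly lower in IMC-treated mice. Of 15 macrophage markers 12 were lower and 0 higher, beside 21.0% and 20.0% of all genes, with a median log2 fold change of -0.58. Without HFD replicate 4, 11 were lower, beside 2261 of all 12787 genes. Trem2 (-0.79), C1qc (-0.65) and Cd14 (-0.56) had the smallest p-values of the list. Their mean ran from 8.70 to 8.98 log2 CPM in HFD control mice and from 8.14 to 8.59 in IMC-treated mice, without overlap. All 10 general leukocyte genes were lower, beside the same 21.0% of all genes, with a median of -0.57. Those with the smallest p-values were the tetraspanin Cd37 (-0.69), Cd48 (-0.65) and Laptm5 (-0.59). Of 13 listed dendritic cell markers 7 were lower and 1 higher, beside 21.0% and 20.0% of all genes, with a median of -0.33. Without HFD replicate 4, 4 were lower, beside the same 2261 of all 12787 genes. Itgax (CD11c), which macrophages of obese fat also carry, fell by 0.68, Ccr7 by 0.74 and Irf8 by 0.41. Cd209a was the dendritic cell marker that rose, by 0.81. Of the lineage-defining genes, Clec9a and Siglech were not listed, and Flt3 (-0.13) and Zbtb46 (0.03) were not called. Xcr1 and Batf3 fell by 0.67 and 0.45 and were not called without HFD replicate 4 (limma, Benjamini-Hochberg adjusted p = 0.0532 and 0.0560). Irf8, like Itgax, is also expressed by macrophages. Cd22, the listed B cell marker, fell by 0.79 (limma, Benjamini-Hochberg adjusted p = 0.0175), the T cell marker Cd28 by 0.62, and Fcrl1 of the lymph node list by 0.91, while Lag3, Cd2 and Ccl19 had fold changes of 0.43, -0.65 and 0.26 and were not called. Cd28 and Fcrl1 were no longer called without HFD replicate 4 (limma, Benjamini-Hochberg adjusted p = 0.0967 and 0.0969), and Lag3 was called higher with a fold change of 0.55 (adjusted p = 0.0210). Adipocyte genes moved the other way, with 10 of 10 higher, beside 20.0% of all genes, and a median of 0.89. The smallest p-values among them were those of Lep (1.04), the glucose transporter Slc2a4 (1.26) and the lipid droplet gene Cidec (0.87). In bulk tissue, fewer cells of a type and less RNA per cell cannot be told apart, and the part of cell composition in the class II values was not tested.

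**Figure D4:**
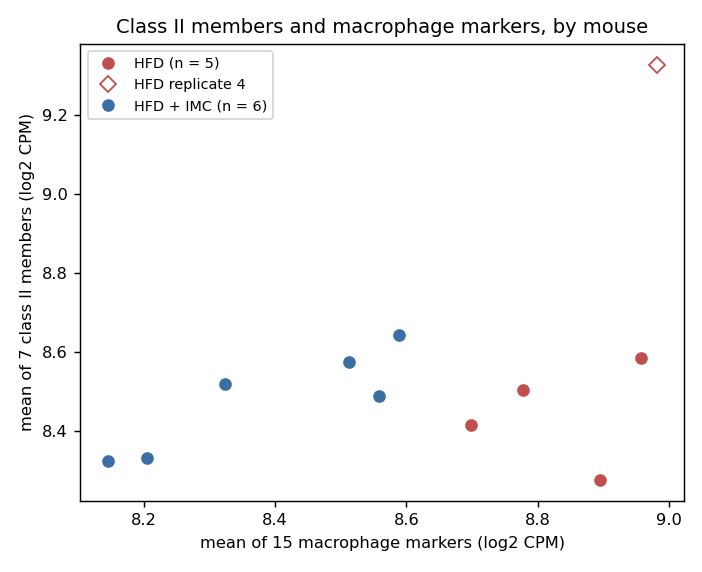
Mean log2 CPM of the 7 class II genes (y axis) against the mean of 15 macrophage markers (x axis), with 1 point per mouse, HFD control mice in red (HFD replicate 4 as an open diamond) and IMC-treated mice in blue. The groups are apart on the x axis, at 8.70 to 8.98 and 8.14 to 8.59, and on the y axis they overlap, at 8.27 to 9.33 and 8.32 to 8.64.

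Set against a leukocyte gene of the same library, 3 of the 7 class II genes were called higher in IMC-treated mice and the fold changes of the other 4 were above 0. Ptprc, which encodes CD45 on all leukocytes, was at 8.49 ± 0.21 (SD, n = 5) in controls and 7.93 ± 0.31 (SD, n = 6) in treated mice. After subtracting Ptprc of the same mouse from every gene, the 7 genes had log2 fold changes from 0.33 to 0.64 with a median of 0.40, below the median of 0.53 over all genes. Limma called 3 of 7 higher and 0 lower, beside 65.9% of all genes called higher. Those called were H2-DMb1 (0.64, Benjamini-Hochberg adjusted p = 0.00268), Ciita (0.45, adjusted p = 0.0293) and Cd74 (0.40, adjusted p = 0.0426), and only H2-DMb1 was without overlap, from -1.94 to -1.30 in controls and -1.23 to -0.56 in treated mice. Relative to Ptprc, Ciita varied little among IMC-treated mice, from -2.49 to -2.25, and more among controls, from -3.33 to -2.23. The number called higher was 1 without HFD replicate 1, HFD replicate 3 or HFD_IMC replicate 2, 6 without HFD replicate 5, and 7 without HFD replicate 4 or HFD_IMC replicate 4. The share of all genes called in these fits is not given, so the counts cannot be compared with it. With all mice kept, 65.9% of all genes were called higher, so even a count of 7 is no result about class II genes.

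Relative to the mean of the 15 macrophage markers, which was 8.86 ± 0.12 (SD, n = 5) in controls and 8.39 ± 0.19 (SD, n = 6) in treated mice, the median of the 7 genes was 0.31 and that of all genes 0.45. Limma called 2 of 7 higher, beside 71.7% of all genes. H2-DMb1 rose by 0.56 relative to these markers with no overlap between the groups (limma, Benjamini-Hochberg adjusted p = 0.000444), and Cd74 by 0.32 (limma, Benjamini-Hochberg adjusted p = 0.0337). The fold changes of the other 5 genes ran from 0.24 for H2-DMa to 0.36 for Ciita and were not called. Without HFD replicate 4 all 7 genes were called higher, and without HFD replicate 1, HFD replicate 3, HFD_IMC replicate 1 or HFD_IMC replicate 2 only 1 was. For these fits, too, the share of all genes called is not given, so their counts are no result about class II genes. With all mice kept, the shares of members called are below those of all genes in both comparisons, and they are no result about class II genes alone.

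Ratios between class II genes within a mouse do not depend on the scaling of the library. The DM chains differed in their ratio, with H2-DMa minus H2-DMb1 at -0.54, -0.61, -0.52, -0.21 and -0.54 log2 units in HFD replicates 1 to 5. In IMC-treated mice the same ratio ranged from -0.98 to -0.57. HFD replicate 4 was the highest, and 5 of the 6 treated mice were below every control. The means were -0.48 ± 0.16 (SD, n = 5) and -0.80 ± 0.14 (SD, n = 6), a difference of -0.32 (two-sided exact permutation test over 462 splits, p = 0.00649, and 0.0390 after Benjamini-Hochberg adjustment over 6 ratios). The difference kept its sign with each mouse left out, between -0.36 and -0.25, and its adjusted exact p lay between 0.0286 and 0.129, above 0.05 in all cases but those without HFD replicate 2 and HFD_IMC replicate 1. The value without HFD replicate 4 was -0.25 (adjusted exact p = 0.129). This ratio and that of H2-DMb1 to H2-Ab1 rest on H2-DMb1, which shares 22.65% of its 50-base words with H2-DMb2. H2-DMa overlaps Brd2 on the opposite strand, so misassigned reads may enter its counts.

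H2-DMb1 relative to H2-Ab1 was higher in IMC-treated mice by 0.30, at -2.51 ± 0.15 (SD, n = 6) against -2.81 ± 0.23 (SD, n = 5) (two-sided exact permutation test, p = 0.0173), and narrowly missed the threshold after adjustment over the 6 ratios (0.0519). HFD replicate 4 had the lowest ratio, -3.18, and without it the difference was 0.21 (adjusted exact p = 0.129). The adjusted exact p passed the threshold without HFD replicate 2 (0.0429) and without HFD_IMC replicate 1 (0.0476). Transcript ratios among the abundant chains varied little between mice: H2-Aa minus H2-Ab1 was 0.94 ± 0.05 (SD, n = 5) and 0.96 ± 0.06 (SD, n = 6), and H2-Eb1 minus H2-Ab1 was 0.22 ± 0.04 (SD, n = 5) and 0.28 ± 0.05 (SD, n = 6). Their differences of 0.01 and 0.05 did not pass the test (exact permutation test, p = 0.699 and 0.0823). Neither did Cd74 minus H2-Ab1, with a difference of 0.06 (exact p = 0.292), nor Ciita minus H2-Ab1, with 0.10 (exact p = 0.610).

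**Figure D5:**
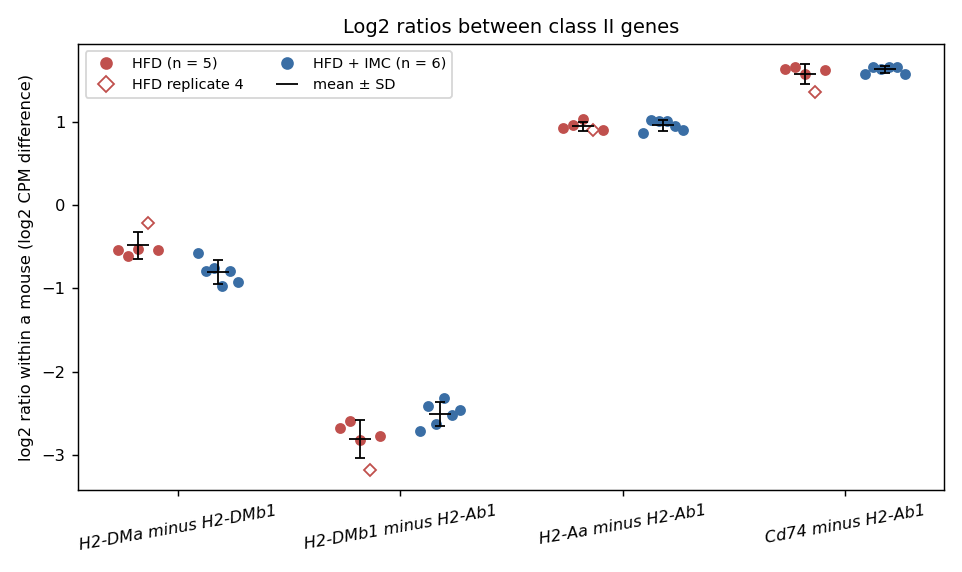
Log2 ratio between pairs of class II genes in the same mouse (y axis, difference of log2 CPM), with 1 point per mouse, HFD control mice in red (n = 5), IMC-treated mice in blue (n = 6), HFD replicate 4 as an open diamond and black bars for mean ± SD. H2-DMa minus H2-DMb1 lies lower in IMC-treated mice, at a mean of -0.80 against -0.48, while H2-Aa minus H2-Ab1 is at 0.94 and 0.96.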

How the data were processed

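Libraries were made by the authors from mRNA with a directional kit, and reads were trimmed (Trim Galore), checked (FastQC), aligned to mm10 (STAR, counting per gene) and scaled by the upper quartile (edgeR), as stated in the study's methods and the submitters' processing notes. The authors removed genes with low counts in all samples and deposited log2 CPM of 12787 genes in 11 mice. The deposited table also holds the authors' own comparison (log2 fold change, mean log2 CPM, a likelihood-ratio score, p-value and FDR), which was not used.

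The deposited values were tested with limma 3.58.1 in R 4.3.3 (lmFit, eBayes with trend, group as the only factor, two-sided) over all genes, with Benjamini-Hochberg adjustment and a threshold of 0.05. The limma p-values set the difference of group means against the spread between these mice, moderated over all genes. The labels give no cage, so cage was not part of the fits. Whole reads were recovered from the steps of the CPM values for 100% of the values (within 1e-06 log2 CPM) and gave depth, alternative scalings and limma voom. Intervals of counting error do not cover amplification. For relative values, Ptprc or the mean of the macrophage markers of the same mouse was subtracted from every gene before the fit. Ratios were compared by two-sided exact permutation over 462 splits, with 0.00216 as the smallest p.

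The genes named are the 7 members, every called gene of the lists for class II processing, regulators, the interferon gamma axis and costimulation, the 3 genes with the smallest p of every other list, and the 10 and 5 genes most like the member mean. Genes named beyond this rule (the genes given for HFD replicate 4, uncalled and further list genes, and markers not listed) were chosen after their values were seen. Members and lists were chosen with earlier results of these data known. Alternatives were other variance models, scalings, a minimum mean of 1 log2 CPM, 2 CPM added, voom and each mouse left out. The fits were tested on simulated data. Some genes of the lists are not reported here.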

Additional observations from a re-analysis of the deposited data

Results flagged for a closer look

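In 4 of 30 sets of values (7 genes, 6 ratios and 2 reference measures in each group), 1 control mouse lay far from the rest of its group by Dixon's criterion, and it was HFD replicate 4 each time. For H2-Ab1 the gap to the next control was 0.733 of the range of the 5 controls, and for H2-DMa it was 0.801, with this mouse highest. For the ratio Cd74 minus H2-Ab1 the gap was 0.738 with this mouse lowest, and for H2-DMa minus H2-DMb1 it was 0.784 with this mouse highest. The criterion marks about 5% of groups by chance, and the sets share mice and genes. Cd74, H2-Aa, H2-Eb1, H2-DMb1 and Ciita of the same mouse stayed below the critical value, although this mouse was the highest control for each of them.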

How the results depend on the processing

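The fold changes and calls of the 7 genes were recomputed under 2 other variance models, 2 other scalings and a minimum mean level. They were also recomputed with 2 CPM added and with limma voom on recovered reads, and the 6 ratios with 2 CPM added only. None of these results changed direction or side of the threshold (69 values). The values relative to Ptprc or macrophage markers and the gene lists were not recomputed in these ways. With each mouse left out in turn, 305 values kept their direction and side of the threshold (counts stayed within 1.5 times). Of the others, 25 lost and 22 gained the threshold, 12 counts of class II genes called higher moved further and 3 values reversed. H2-Eb1 and Ciita turned to 0.0475 and 0.0789 without HFD replicate 4 (ranges -0.26 to 0.05 and -0.22 to 0.08), and Ciita minus H2-Ab1 to -0.0029 without HFD_IMC replicate 4 (range -0.0029 to 0.20). The number of class II genes called higher ranged from 0 to 1. The 1 was H2-DMb1 without HFD replicate 4, beside 2302 of all 12787 genes called higher. Relative to Ptprc and relative to macrophage markers the number ranged from 1 to 7, and the number called lower was 0 throughout. For the relative counts with a mouse left out, the share of all genes is not given, so these counts are no result about class II genes. H2-DMa minus H2-DMb1 ranged from -0.36 to -0.25 and H2-DMb1 minus H2-Ab1 from 0.21 to 0.35. The alternatives without HFD replicate 4 for the gene lists were added after seeing the data. No paired analysis was run, since the groups are different mice and the labels name no pairing between them.

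With 5 and 6 mice, the 95% intervals allow class II genes in IMC-treated mice to be as low as 0.666 of the control level for H2-Ab1 and as high as 1.28 of it for Ciita, so differences within these bounds are not resolved here. Depth was not the limit, since counting error was below the spread between mice. Bulk RNA gives no cell type, surface protein or peptide loading. The level of H2-DMb1 is uncertain because H2-DMb2 shares sequence with it.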
